A study of Mus musculus with 6 samples.

Results

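The expression of 10 mouse genes of the erythroid program was followed through single-cell RNA profiles of healthy hematopoietic stem and progenitor cells from leukemic bone marrow. They are 6 transcriptional regulators (Klf1, Gata1, Gata2, Zfpm1, Gfi1b and Tal1), the carbonic anhydrases Car1 and Car2, the transferrin receptor Tfrc and the apolipoprotein Apoe. They were taken by symbol from the gene lists of the files, where each of the 10 occurs among 32285 genes. C1498, a mouse acute myeloid leukemia (AML) line that carries CD45.2, was injected at 1000000 cells into female C57BL/6J mice that carry CD45.1, aged 8 to 12 weeks and given no conditioning, and control recipients received PBS. At day 21 bone marrow was depleted of red cells by lysis and of lineage-positive cells, and CD45.1+ Lin- cKit+ Sca1+ (LSK) cells were sorted and profiled with the 10x Chromium V3 chemistry, so the leukemia itself was gated out in both arms. The labels give 3 PBS and 3 AML libraries and do not say whether a library held 1 mouse or several. The authors' cell table lists 16822 cells from 5 libraries, with AML replicate 2 absent, so the comparisons set 3 PBS libraries against 2 AML libraries.

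Red cell formation runs through a small circuit of transcription factors. GATA2 works in stem and early progenitor cells and gives way to GATA1 as cells commit to the erythroid and megakaryocytic lines. FOG1, the product of Zfpm1, is the cofactor of GATA1, TAL1 joins GATA factors in a DNA-bound complex, and GFI1B is a repressor needed for red cells and platelets. KLF1 then switches on adult globin, heme and membrane genes. Carbonic anhydrases convert carbon dioxide to bicarbonate, the transferrin receptor imports iron, and apolipoprotein E carries lipid and is made by many cell types, stem cells included.

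The number of UMIs (unique molecular identifiers, each standing for 1 captured transcript) in the table's cells ran from 1945659 in AML replicate 1 to 32123508 in PBS replicate 1, and the median per cell from 2393 in AML replicate 1 to 9586 in PBS replicate 2. AML replicate 1 had 693 cells and 23 of the HSC class, the fewest of any library. The libraries share cell barcodes. AML replicate 2 holds 97.4% of the barcodes of PBS replicate 2, and the PBS libraries 1 and 2 share 631, or 50.2% of the smaller, but among the cells of the table no pair of libraries shares more than 12. Markers of the HSC class went with the treatment. Their summed level was 864 to 983 CPM (UMIs per 1000000 UMIs of the library) under PBS, against 613 and 776 CPM under AML. HSC-class cells made up 20.5%, 23.9% and 21.9% of the PBS libraries, and 3.32% and 13.7% of the AML libraries. MPP-3 cells, primed toward granulocytes and monocytes, made up 4.39% to 11.6% in PBS and 22.3% and 32.9% in AML.

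The sequences upstream of the 4 regulators whose levels were highest in cluster 7 of the authors (described next) are shown because these genes peaked in the same cells. Each is the stretch from 250 to 56 bases before the RefSeq start on GRCm38.p6, 5′ to 3′ on the gene's strand, and none overlaps an annotated exon. Capitals mark letters that match a GATA motif (AGATAA or AGATAG, and their variants with T as the first base), a CACCC-type motif (CCNCNCCC) or an E-box (CANNTG), on either strand. The Klf1 stretch is chr8:84901732-84901926 on the plus strand, that of Gata1 chrX:7967966-7968160 on the minus strand, within the intron-containing span of the longer Gata1 gene model. That of Gfi1b is chr2:28622038-28622232 on the minus strand and that of Zfpm1 chr8:122281891-122282085 on the plus strand.
Klf1: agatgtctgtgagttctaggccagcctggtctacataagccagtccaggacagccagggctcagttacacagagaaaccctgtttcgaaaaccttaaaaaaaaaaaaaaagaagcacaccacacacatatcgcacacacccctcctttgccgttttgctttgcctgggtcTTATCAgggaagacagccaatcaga
Gata1: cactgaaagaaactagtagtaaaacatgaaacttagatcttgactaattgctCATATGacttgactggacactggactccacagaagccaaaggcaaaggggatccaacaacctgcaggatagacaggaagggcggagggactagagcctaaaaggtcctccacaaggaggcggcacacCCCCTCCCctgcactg
Gfi1b: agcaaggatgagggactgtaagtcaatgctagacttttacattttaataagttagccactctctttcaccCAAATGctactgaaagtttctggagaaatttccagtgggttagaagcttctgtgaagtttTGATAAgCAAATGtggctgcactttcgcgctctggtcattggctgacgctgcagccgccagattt
Zfpm1: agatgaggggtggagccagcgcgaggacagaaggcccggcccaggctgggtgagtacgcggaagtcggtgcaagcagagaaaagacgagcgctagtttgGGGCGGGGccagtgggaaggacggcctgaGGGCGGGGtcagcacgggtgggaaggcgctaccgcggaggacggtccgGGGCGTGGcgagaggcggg

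Klf1 had 1 GATA match, 80 bases before the start, and Gfi1b had 1, 120 bases before it, with an E-box match at 113 that shares no base with it. Gata1 had 1 CACCC-type match and 1 E-box match, and Zfpm1 had 3 CACCC-type matches and no other. RefSeq gave 13 windows for 8 of the 10 genes, of which 10 windows lay outside exons. A GATA match was found in 3 of those 10 windows (Klf1, Gfi1b and Tal1), a CACCC-type match in 6 and an E-box in 4. Of all 32841 promoter windows of that length, 22.7% held the GATA letters, 35.3% the CACCC-type letters and 58.3% an E-box. The matches are letters only. No binding was measured.

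Car1 and Klf1, and to a lesser degree Gata1, were concentrated in 1 small group of cells. Cluster 7 of the authors held 102 of the 16822 cells (0.606%), of which 88 were of the MPP-2 class, 6 HSC, 7 MPP-3 and 1 MPP-4. It held 6779 of the 7010 Car1 UMIs (96.7%), 48.1% of the Klf1 UMIs and 14.4% of the Gata1 UMIs. Of the other 7 genes it held at most 4.18% (Gfi1b). The authors drew the clusters from the expression of these same cells, so these levels describe the clusters and were not tested.

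**Figure D1:**
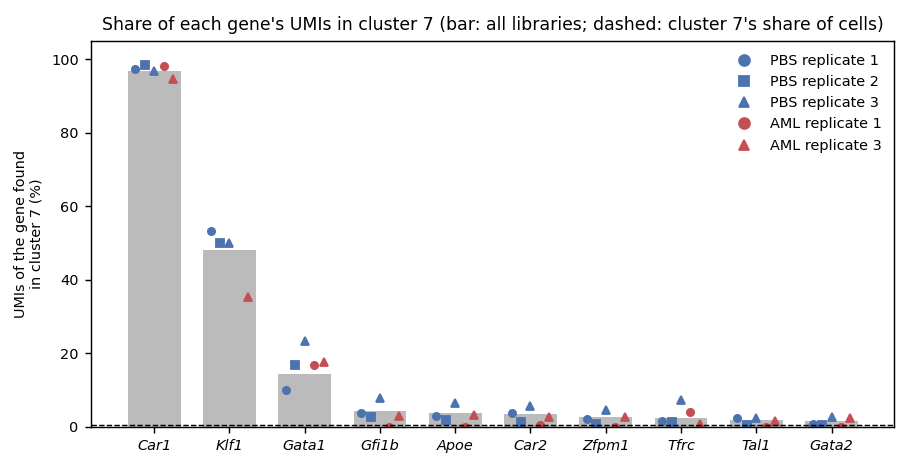
Percent of each gene's UMIs that lay in cluster 7, for all 5 libraries together (bars) and for each library (points), with the cluster's 0.606% of the cells as a dashed line. Car1 stood between 94.5% and 98.5% in every library, and Klf1 between 35.3% and 53.2% in the 4 libraries in which it had a UMI.

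Cluster 7 was present in every library of the table. It made up 34 of 6838 cells in PBS replicate 1 (0.497%, exact Clopper-Pearson 95% interval 0.345% to 0.694%), 3 of 934 in PBS replicate 2 (0.321%, 0.066% to 0.936%) and 42 of 4398 in PBS replicate 3 (0.955%, 0.689% to 1.29%). In AML replicate 1 it made up 2 of 693 cells (0.289%, 0.035% to 1.04%), and in AML replicate 3, 21 of 3959 (0.530%, 0.329% to 0.810%). The share in AML replicate 3 lay above those of PBS replicates 1 and 2, and the 2 groups overlapped. These intervals cover counting error only.

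Its cells carried erythroid genes beyond those followed here. Of the erythroid cell markers other than hemoglobin, 10 of 10 had a UMI in cluster 7, and their summed level was 454 CPM against at most 19.97 CPM in any other cluster. After Car1, its leading genes included Slc25a21, Gm15915, Mt2, Tspo2, Ermap, Smim1, Rhd and Cldn13. HSC markers stood at 219 to 313 CPM over its libraries, a range that overlapped that of cluster 4 and lay below those of the other clusters, with Procr, Fgd5 and Esam at 0. Markers of B and plasma cells summed to 9266 CPM, with Ebf1 and Pax5 at 0 and a range over libraries of 92.4 to 22128 CPM. The part of these immunoglobulin transcripts in the cluster's other values was not tested.

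Klf1, the master activator of adult erythroid genes, had its highest level in these cells, while more of its UMIs lay outside cluster 7 than in it. It stood at 172, 85.4 and 128 CPM in cluster 7 of PBS replicate 1, PBS replicate 3 and AML replicate 3, the 3 libraries with at least 20 such cells. In no other cluster of at least 20 cells did it exceed 3.15 CPM in any library. A Klf1 UMI was found in 52 of the 102 cells (51.0%) and in 0.670% of all others, and every one of the 6 cells with 5 or more lay in cluster 7. Outside it, 72 of the 112 cells with a Klf1 UMI were in cluster 0.

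Gata1, which activates erythroid and megakaryocytic genes, had the same order with a broader base. It stood at 103, 65.5 and 142 CPM in cluster 7 of those 3 libraries. Cluster 0, whose leading genes include Pf4, a megakaryocytic marker, and Pdzk1ip1, followed at 5.88 to 18.4 CPM over 5 libraries, and cluster 5 at 2.57 to 13.9 CPM. Clusters 0 and 5 overlapped.

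Zfpm1 and Gfi1b were also highest in cluster 7 in each of the 3 libraries, with less contrast. Zfpm1 stood at 85.9, 82.6 and 135 CPM, next to 35.3 to 64.5 CPM in cluster 0 and 23.7 to 53.8 CPM in cluster 5. Gfi1b stood at 72.2, 54.1 and 63.98 CPM, next to 25.7 to 40.5 CPM in cluster 5. In cluster 6, led by immunoglobulin genes, they reached at most 6.57 and 2.20 CPM.

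Tal1 and Gata2 did not follow that order. Tal1, a partner of GATA factors from the stem cell onward, stood at 37.0 to 61.8 CPM in cluster 7, at 27.0 to 48.9 CPM in cluster 5 and at 29.4 to 40.8 CPM in cluster 0, ranges that overlapped. Gata2 stood at 17.2, 34.2 and 92.4 CPM in cluster 7, against 36.0 to 41.7 CPM in cluster 5 and 25.0 to 49.4 CPM in cluster 0. Gata2 was highest in cluster 7 in 1 of the 3 libraries, AML replicate 3. In cluster 2, led by the lymphoid genes Dntt and Il7r, Gata2 reached at most 6.56 CPM and Tal1 at most 8.22 CPM.

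The carbonic anhydrases differed in kind. Car1, an erythroid isoform, stood at 9054, 7693 and 7578 CPM in cluster 7 of PBS replicate 1, PBS replicate 3 and AML replicate 3, and at 2.46 CPM over all other cells. Of the 99 cells with at least 5 Car1 UMIs, 91 lay in cluster 7, as did all 59 with at least 20. Car2, the widely expressed fast isoform, was found in 77.2% of the cells outside cluster 7. It stood at 3031, 2133 and 1991 CPM in cluster 7, at 1156 to 1743 CPM in cluster 5, at 382 to 1056 CPM in cluster 0 and at 53.0 to 278 CPM in cluster 4, which is led by granulocyte and monocyte genes.

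Apoe stood at 533, 535 and 526 CPM in cluster 7 and next at 149 to 275 CPM in cluster 5 and up to 301 CPM in cluster 0. Cluster 2 had 9.92 to 23.6 CPM. Tfrc varied less between clusters. It stood at 20.6, 48.4 and 21.3 CPM in cluster 7 and had overlapping ranges in clusters 0 to 4, with medians between 8.64 and 15.1 CPM.

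**Figure D2:**
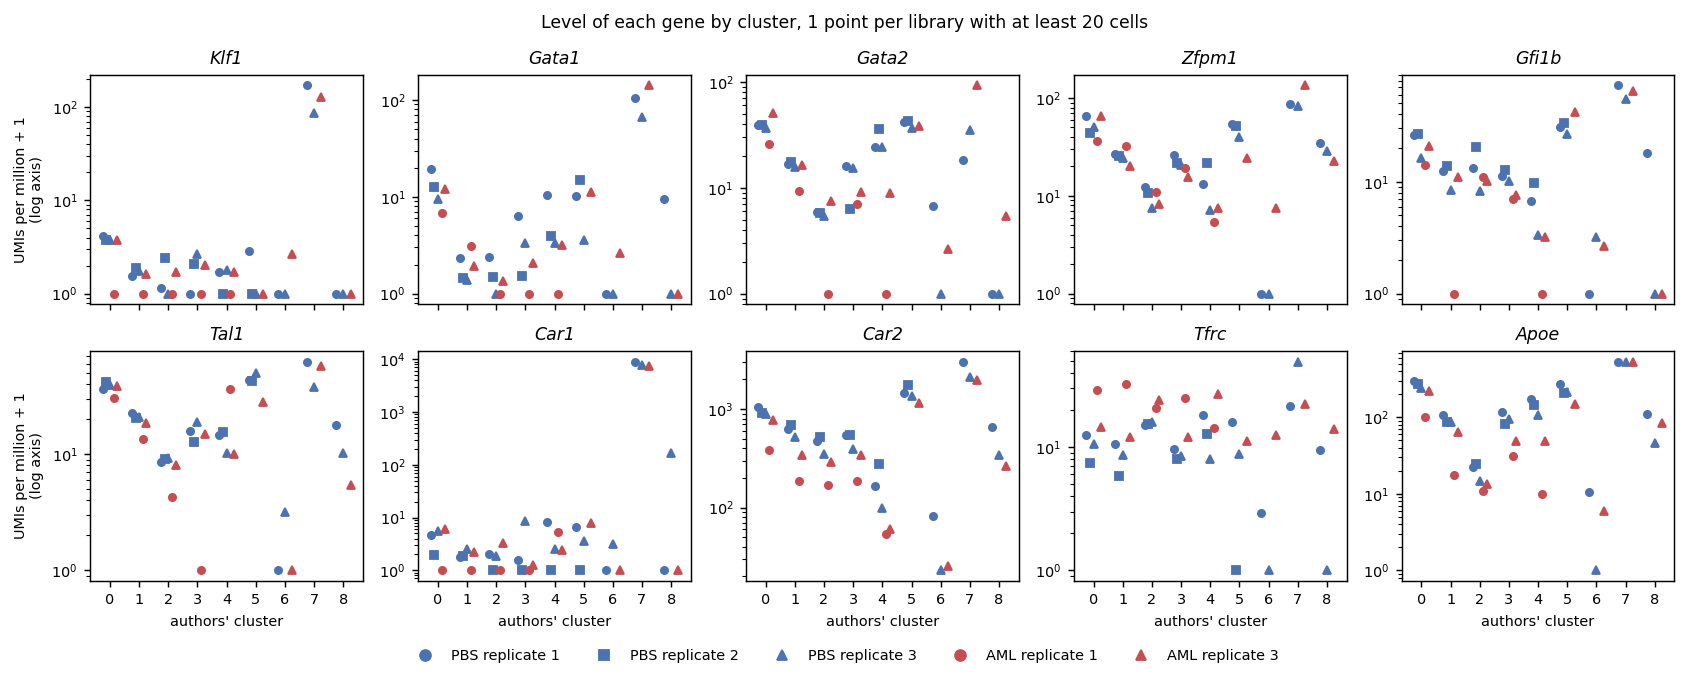
CPM plus 1 (log axis) of each of the 10 genes in the authors' clusters 0 to 8, with 1 point per library that had at least 20 cells of the cluster. Car1 in cluster 7 lay at 7578 to 9054 CPM against at most 165 CPM elsewhere, whereas the ranges of Tfrc overlapped in clusters 0 to 4.

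Shares of cells with a UMI depend on depth, so each cell was also thinned to 2000 UMIs, which left out 205 shallower cells (125 of PBS replicate 1 and 80 of PBS replicate 3). After thinning, Car1 was found in 96.1% of the cells of cluster 7 and in 1.19% or fewer of every other cluster, and Klf1 in 29.4% and 0.402% or fewer. In cluster 6, plasma-cell-like by its immunoglobulin genes, thinned shares were 0% for Klf1, Gata1, Gata2, Tal1 and Car1 (0 of 175 cells, which allows up to 1.71%), 0.571% for Zfpm1 and Gfi1b, 1.14% for Tfrc, 1.71% for Apoe and 6.86% for Car2. Before thinning the Car2 share there was 15.3%, at a median of 8667 UMIs per cell against 6380 in cluster 7. B and plasma cell markers took 590209 CPM of cluster 6, so its thinned cells hold fewer UMIs of all other genes than those of the other clusters, and the shares do not compare at equal depth.

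Across the authors' classes the 10 genes fell into 3 patterns. Gata2, Zfpm1 and Car2 were highest in the HSC class in 5 of 5 libraries, Tal1 and Apoe in 4 of 5 and Gfi1b in 3 of 5. Klf1 and Gata1 were highest in MPP-2, the class with megakaryocytic and erythroid priming, in 4 of 5 libraries and Car1 in 5 of 5. The exception for Klf1 was AML replicate 1, which held 0 Klf1 UMIs. That library held 6 Gata1 UMIs over all its cells, so its class order for Gata1 rests on few UMIs. Tfrc was highest in MPP-4, the lymphoid-primed class, in 5 of 5.

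Gata2 stood at 36.9 to 55.5 CPM in HSC over the 5 libraries, at 15.2 to 25.4 CPM in MPP-2, at 3.25 to 35.7 CPM in MPP-3 and at 9.62 to 17.1 CPM in MPP-4. HSC lay above the other classes without overlap, and the remaining 3 overlapped. Car2 stood at 538 to 1166 CPM in HSC, at 278 to 808 CPM in MPP-2, at 351 to 626 CPM in MPP-4 and at 119 to 439 CPM in MPP-3, so neighbours in that order overlapped between libraries although the order of the top class held within each. Apoe stood at 196 to 264 CPM in HSC, at 70.8 to 279 CPM in MPP-2, at 11.4 to 114 CPM in MPP-3 and at 27.0 to 40.5 CPM in MPP-4. HSC lay above MPP-3 and MPP-4 without overlap and overlapped MPP-2.

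Much of the MPP-2 pattern rested on cluster 7. With that cluster left out, Car1 in MPP-2 went from 184 to 3.10 CPM and in MPP-3 from 13.5 to 0.840 CPM. Klf1 in MPP-2 went from 5.50 to 2.50 CPM, against 1.03 CPM or less in the other classes. Gata1 went from 13.1 to 11.3 CPM and remained above the 3.95 CPM of HSC.

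Detection of these genes in the same cell was counted next. In cluster 0, 23 of the 72 cells with a Klf1 UMI also had a Gata1 UMI (31.9%), against 4.11% of the cells without Klf1. The cells with a Klf1 UMI had a median of 6571.5 UMIs, and those without 3712. In cluster 7, 14 of the 57 Gata1-positive cells also held Gata2 (24.6%), against 9 of the 45 Gata1-negative cells. There the cells with a Gata1 UMI had a median of 8509 UMIs and those without 4433. Split by Gata2, the medians were 5043 UMIs with it and 7128 without. Klf1 and Car1 were found together in 52 of the 52 Klf1-positive cells of cluster 7, against Car1 in 96.0% of its Klf1-negative cells. Outside cluster 7, 5 of the 112 Klf1-positive cells also held Car1 (4.46%), against 0.698% of the Klf1-negative cells. Those with a Klf1 UMI had a median of 6571.5 UMIs, and those without 4558.5.

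By the authors' cell cycle phase, Gata2, Tal1 and Car2 were highest in G1 in 5 of 5 libraries. Gata2 stood at 22.8 to 32.6 CPM in G1, at 12.7 to 20.2 CPM in G2M and at 4.65 to 20.6 CPM in S. Gata1 was highest in G2M in 4 of 5 libraries and Tfrc in S in 4 of 5. Cluster 7 itself held 37 G2M, 37 S and 28 G1 cells.

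The nearest genes to each of the 10 were found over 38 sums of UMIs (1 cluster in 1 library, at least 20 cells), by Pearson's r of log2(CPM + 1). These sums share libraries and cluster 7 drives several, so the values are descriptions. For Klf1 they were Gm15915 (0.962), Slc25a21 (0.952) and Ermap (0.932), for Car1 Tspo2 (0.939), Slc25a21 and Ermap, and for Gata1 Blvrb (0.819), Phf10 and Gm15915. For Gata2 the nearest was Apoe (0.779), the only case in which 1 of the 10 genes was among another's nearest 3. Zfpm1 was nearest to Pdlim1 (0.893), Gfi1b to Ppm1a (0.853), Tal1 to Tslp (0.875), Car2 to Rab4a (0.902), Tfrc to Kpna1 (0.815) and Apoe to Nt5c3 (0.878).

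Other genes of the pathway were counted over lists of known function, in cluster 7 against all other cells, for genes with at least 30 UMIs. The lists exclude the 10 genes, and the examples were chosen after their values were seen. Over all genes 30.3% were higher in cluster 7, 5.77% more than 2 times higher and 0.655% more than 10 times. Of the heme synthesis enzymes and carriers 12 of 14 were higher and 11 more than 2 times, among them Cpox (68.7 against 8.78 CPM) and Alas2 (7.11 against 0.681 CPM, on 6 UMIs in cluster 7). Of the red cell membrane and late erythroid genes 19 of 21 were higher and 13 more than 10 times, among them the biliverdin reductase Blvrb (1307 against 52.3 CPM).

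The wider set of erythroid regulators and their partners behaved otherwise. Of 19, 8 were higher and 2 more than 2 times. These were the erythropoietin receptor Epor (50.9 against 1.35 CPM) and E2f4 (127 against 56.5 CPM). Lmo2, the bridge of the TAL1 complex, stood at 322 against 630 CPM. Of the 8 other carbonic anhydrases with enough UMIs 2 were higher, and none more than 2 times. Of the iron handling genes 7 of 14 were higher, with the iron exporter Slc40a1 at 23.7 against 0.926 CPM. Of 10 lipoprotein receptor and cholesterol genes 2 were higher.

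Leukemia was compared with PBS over all LSK cells of a library by edgeR's quasi-likelihood test over 14364 genes, with levels scaled by TMM. None of the 10 genes passed an adjusted p of 0.05, where 23 of all genes did (0.160%). Without adjustment, 5 of the 10 had p under 0.05, as did 1511 of all genes (10.5%). DESeq2 called 2 of the 10 (Car2 and Apoe) and 79 of all genes (0.550%), and limma-voom called none of the 10. In 9 of the 10 the fold change was negative, and its median over the 10 was -0.71 on the log2 scale, against -0.03 over all genes. Markers of other lines moved beside them. The 10 megakaryocyte and platelet markers tested had a median of -0.86 (none called, 4 with an unadjusted p under 0.05) and the 11 granulocyte-monocyte priming genes one of 1.26 (3 called higher), and their part in these values was not tested. The AML libraries lay below every PBS library, with no overlap, for 8 of the 10, which 17.4% of all genes also did, and above it for 1, Tfrc (14.6% of all genes). With an own filter on the deposited barcodes in place of the cell table (levels without TMM) the 8 became 5 in the same libraries (Klf1, Zfpm1, Tal1, Car2 and Apoe). With AML replicate 2 added they became 3 (Klf1, Car2 and Apoe). Klf1 had 0 UMIs in AML replicate 2, where 3 UMIs are 9.80 CPM. Its PBS levels were 2.56 to 2.74 CPM, so that library cannot show Klf1 below them.

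**Figure D3:**
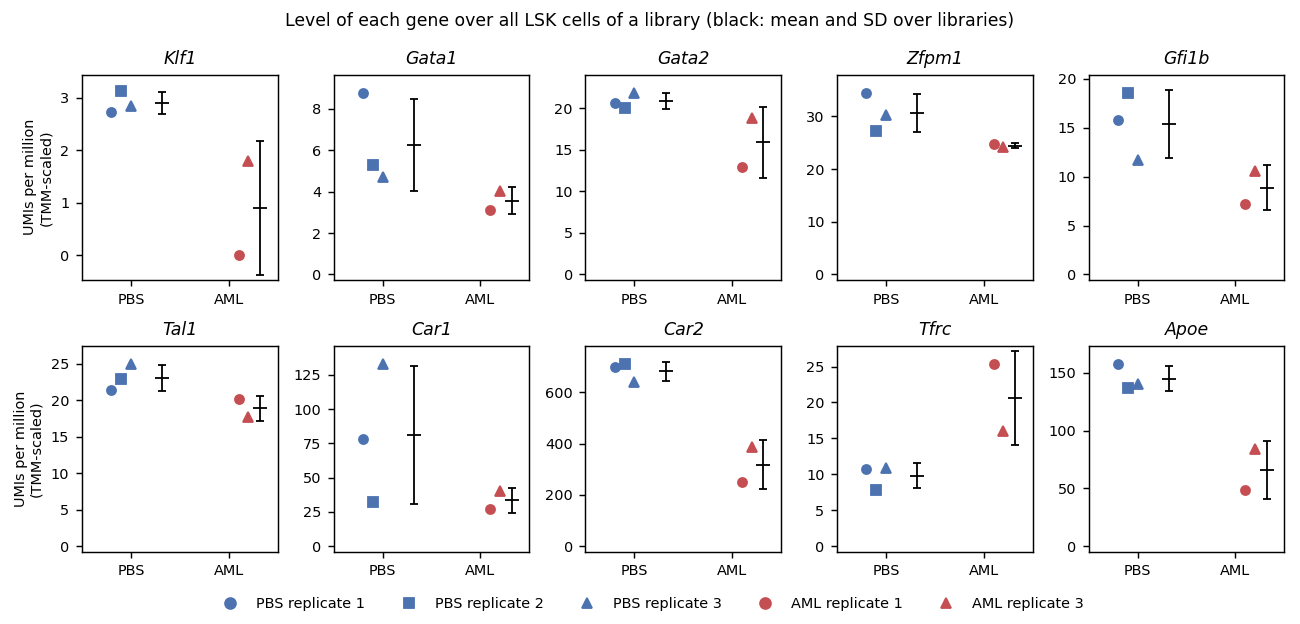
TMM-scaled CPM of each gene over all LSK cells, 1 point per library, with the mean and SD of the 3 PBS and 2 AML libraries in black (the SD of Klf1 under AML runs below 0). Apoe, Car2 and 6 regulators lay lower in both AML libraries, Tfrc higher, and Car1 overlapped.

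Apoe stood at 157, 137 and 140 CPM under PBS and at 48.5 and 83.9 CPM in AML replicates 1 and 3. Both AML libraries were below the lowest PBS library. The log2 fold change was -1.10 ± 0.27 (SE, edgeR adjusted p = 0.158, unadjusted p = 0.00107).

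Car2 stood at 699, 709 and 639 CPM in PBS and at 250 and 385 CPM in AML. The AML libraries again lay apart from the PBS libraries, AML replicate 1 the farther. The log2 fold change was -1.10 ± 0.29 (SE, edgeR adjusted p = 0.192).

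Tfrc, the iron importer, went the other way. It stood at 10.7, 7.83 and 10.9 CPM in PBS and at 25.3 and 16.0 CPM in AML. The log2 fold change was 0.97 ± 0.26 (SE, edgeR adjusted p = 0.207).

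Car1 stood at 78.5, 32.4 and 133 CPM in PBS and at 26.8 and 39.9 CPM in AML. The PBS libraries spread widely and AML replicate 3 lay above PBS replicate 2. By edgeR the change was -1.24 ± 0.43 on the log2 scale (adjusted p = 0.336) and became -0.39 (adjusted p = 0.843) once cluster 7 was left out. With the replicate number as a block it was -1.65 (adjusted p = 0.00056).

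Klf1 had 94, 32 and 60 UMIs in the PBS libraries, or 2.73, 3.13 and 2.85 CPM. It had 0 UMIs in AML replicate 1, which allows up to 1.54 CPM (3 counts), and 51 in AML replicate 3 (1.80 CPM). The log2 fold change was -0.97 ± 0.48 (SE, edgeR adjusted p = 0.495), and -0.55 without cluster 7. It was -0.66 without AML replicate 1, and without AML replicate 3 the AML side has no Klf1 UMI, so its fitted value there (-8.61, adjusted p = 0.0642) depends on the prior count and is no bound.

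Gata1 stood at 8.79, 5.28 and 4.70 CPM in PBS and at 3.10 and 4.03 CPM in AML (log2 fold change -0.73 ± 0.35, edgeR adjusted p = 0.478). Gfi1b stood at 15.8, 18.6 and 11.7 CPM in PBS and at 7.23 and 10.5 CPM in AML (-0.68 ± 0.27, adjusted p = 0.415). Zfpm1, Tal1 and Gata2 had log2 fold changes between -0.31 and -0.33, with adjusted p between 0.591 and 0.622. The AML libraries lay below the PBS libraries in each of these 5 regulators, by differences that did not pass the test.

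Other genes of the pathway were likewise not called over all LSK cells in any of the 7 lists, by edgeR at an adjusted p of 0.05. The median log2 fold change was -0.50 over 22 red cell membrane and late erythroid genes, of which 5 had an unadjusted p under 0.05, and -0.22 over 14 heme synthesis genes, of which 2 did. It was 0.15 over the 19 other erythroid regulators and partners, with 3 under 0.05, against -0.03 over all genes.

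With each class given equal weight, the log2 fold changes of Apoe and Car2 by limma were -0.65 and -0.72 (adjusted p = 0.431 for both), where limma-voom on the plain sums gave -1.13 and -1.19 (adjusted p = 0.112 and 0.0845). With equal weight Tfrc stood at 1.03 (limma adjusted p = 0.431), and Gata2, Zfpm1, Gfi1b and Tal1 lay between -0.05 and 0.02. Within cluster 4 alone, a comparison chosen after seeing the data, 3 of the 10 passed the test, as did 45 of 8615 genes in all (0.522%). These were Apoe at -1.89 (adjusted p = 0.0034), Car2 at -1.60 (0.0207) and Gata2 at -1.83 (0.0301). They rest on few UMIs. AML replicate 1 had 2 Apoe, 12 Car2 and 0 Gata2 UMIs in cluster 4, the first and last under the floor of 3 counts, and AML replicate 3 had 197, 247 and 33. Summed mast cell and basophil markers ranged there from 44.2 to 1066 CPM over the 5 libraries, and their part in these calls was not tested. Cluster 4 is led by Prss34, Elane and Hp, and 6 of the 10 genes had enough UMIs there. Clusters 0, 1, 2 and 3 taken alone gave none. Fewer cells of a type and less RNA per cell cannot be told apart in sums over all LSK cells.

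Within classes the test was repeated on sums per class. None of the 9 genes tested in HSC passed, where 19 of 10668 genes did (0.178%), none of the 10 tested in MPP-2 (5 of 12518 genes, 0.0399%), none of the 8 tested in MPP-4 (4 of 12305 genes, 0.0325%), and 1 of the 8 tested in MPP-3, Car1 (5 of 10294 genes, 0.0486%). At an unadjusted p under 0.05 the same classes, in that order, had 1, 5, 2 and 5 of the genes, against 4.16%, 7.56%, 5.93% and 7.39% of all genes. DESeq2 called 1 of the 10 in MPP-2, Car2, where it called 15 of 12518 genes (0.120%), and none in the other classes.

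On the TMM scale Apoe and Car2 lay lower in both AML libraries than in every PBS library in all 4 classes. Such a lower separation was found for 16.3%, 14.8%, 12.6% and 14.5% of all genes in HSC and the MPP classes 2 to 4. Without TMM the separation was lost for Apoe in HSC and MPP-4 and for Car2 in MPP-3, and the median log2 fold change of all genes moved from -0.03 to 0.12 in HSC and from -0.01 to 0.11 in MPP-3. In HSC, AML replicate 3 stood at 222 and PBS replicate 3 at 225 CPM of Apoe with TMM, and at 225 and 197 CPM without it. For Apoe the log2 fold changes (± SE) in the order HSC, MPP-2, MPP-3, MPP-4 were -0.32 ± 0.29, -1.10 ± 0.30, -1.51 ± 0.39 and -0.39 ± 0.25. For Car2 they were -0.65 ± 0.32, -1.03 ± 0.29, -1.08 ± 0.35 and -0.70 ± 0.26. In HSC, where AML replicate 1 has 23 cells, the Car2 value was -0.28 without that library and -1.44 without AML replicate 3. In the main edgeR fit with all 5 libraries each adjusted p was 0.173 or more. Some alternatives on the same libraries made calls, among them Car2 in MPP-2 by DESeq2 and Apoe in MPP-3 with the replicate number as a block. Without AML replicate 3 the value of Apoe in MPP-3 was -3.11 (edgeR adjusted p = 0.0124), and without AML replicate 1 it was -1.02 (0.904).

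In MPP-3 Apoe stood at 98.3, 102 and 77.5 CPM under PBS and at 10.6 and 44.7 CPM in AML. These rest on 462, 46 and 196 UMIs in PBS and on 7 and 364 in AML. AML replicate 1 lay farthest from the rest.

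Tfrc lay higher in both AML libraries than in every PBS library in the 3 MPP classes, where 14.1%, 12.0% and 13.2% of all genes did (in the order of the class numbers), and overlapped in HSC (11.0% of all genes separated upward there). In these classes its log2 fold changes were 0.87 ± 0.29, 1.01 ± 0.36 and 0.71 ± 0.29 (edgeR adjusted p = 0.468, 0.415 and 0.757). In HSC 1 Tfrc UMI was counted in AML replicate 1. Gata2 in MPP-3 stood at 17.2, 46.4 and 17.0 CPM in PBS and 3.01 and 11.9 CPM in AML (-1.15 ± 0.44, adjusted p = 0.513), and its fold change ran from -2.81 without AML replicate 3 to -0.78 without PBS replicate 2. The 2 UMIs of AML replicate 1 there are under the floor of 3 counts. Markers of other cells moved the same way in MPP-3. The 7 mast cell and basophil markers tested had a median log2 fold change of -2.18 (6 with an unadjusted p under 0.05) and the 8 B and plasma cell markers one of -2.02 (6 under 0.05), none of them called, and their part in these values was not tested.

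The call on Car1 in MPP-3 rested on few cells. The class held 78, 0 and 126 Car1 UMIs in PBS replicates 1, 2 and 3 and 0 and 5 in AML replicates 1 and 3. The groups overlapped, since PBS replicate 2 had none. In edgeR's fit AML differed from PBS by -5.47 ± 0.89 log2 units (SE, edgeR adjusted p = 0.0121). Cluster 7 cells placed in MPP-3 supplied all but 4, 0 and 4 of the PBS UMIs, and none of those in AML. Without PBS replicate 1 or 3 too few UMIs were left to test it. The call was lost with limma-voom (adjusted p = 0.19), with DESeq2, when either AML library was left out and when a gene that scatters more than others kept its own spread (robust estimation, adjusted p = 0.635). In clusters 0 to 4 alone Car1 had too few UMIs to be tested.

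**Figure D4:**
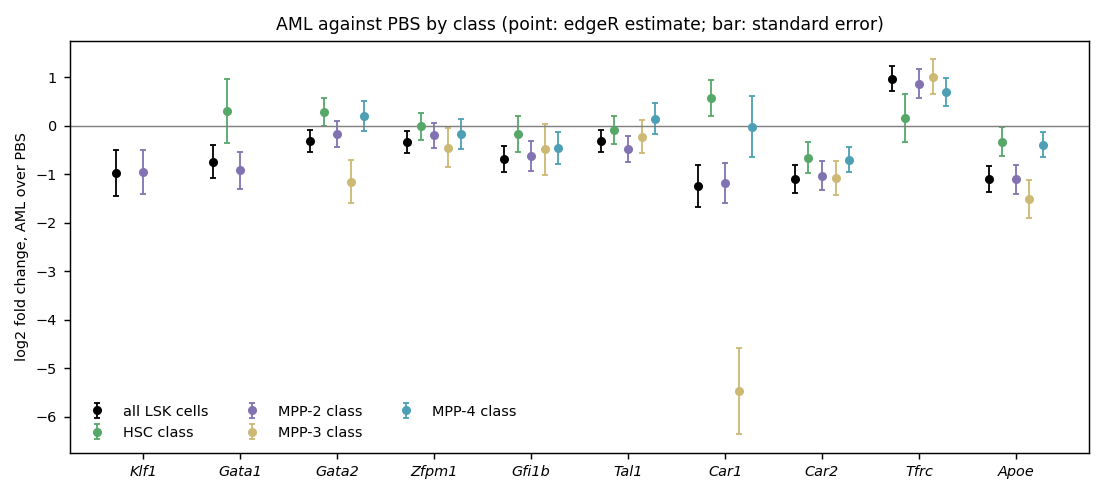
Log2 fold change of AML over PBS by edgeR for each gene, over all LSK cells and in each class (point, estimate; bar, standard error), for the genes that passed the filter on low counts. Apoe and Car2 lay below 0 and Tfrc above 0 in all 4 classes, and Car1 in MPP-3 stood apart at -5.47.

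Whether the effect of leukemia differed between classes was tested with an interaction term over 12734 genes, of which 111 passed (0.872%). Car1 was the 1 of the 10 genes that passed (edgeR adjusted p = 0.00143), where MPP-2 differed from HSC by -1.65, MPP-3 by -6.02 and MPP-4 by -0.78. It no longer passed without cluster 7 (adjusted p = 0.569), without AML replicate 3 (0.890) or with robust estimation (0.329). When 1 library was left out, the MPP-2 difference of Car1 ran from -3.10 to 6.59. Apoe had an adjusted p of 0.0627, and its differences from HSC were -0.59, -0.86 and -0.13. It passed when PBS replicate 2 was left out (5.78e-05), as did Car2 (0.00465). Gata2 had an adjusted p of 0.252.

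The last question was whether the 10 genes rise in cells with many hemoglobin UMIs. Few cells had them. Of the 16822 cells, 87 had at least 10 UMIs of the hemoglobin genes, 38 of them in AML replicate 3, 18 in PBS replicate 1, 19 in PBS replicate 2, 12 in PBS replicate 3 and none in AML replicate 1. Most of them lay outside cluster 7. It held 8 of the 87 (9.20%, against 0.606% of all cells), cluster 0 held 30 and cluster 1 held 27. The hemoglobin genes Hba-a1, Hba-a2, Hbb-bs and Hbb-bt stood at 1426, 533, 2274 and 445 CPM in cluster 7, against 37.3, 30.5, 93.4 and 54.1 CPM in all other cells. The pooled levels rest on few cells, since Hbb-bs ranged from 82.5 to 10990 CPM and Hba-a1 from 65.3 to 6889 CPM over the libraries with at least 20 cells of the cluster, and 4 cells had at least 100 hemoglobin UMIs. Of the 102 cells of cluster 7, 72 had no hemoglobin UMI, 22 had 1 to 9 and 8 had 10 or more. The median Car1 count was 20 UMIs in the 72 cells and 22 in the 8.

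The sums of these cells, with hemoglobin UMIs left out, were set against all other cells of the same library in 4 libraries. Klf1, Car1 and Car2 passed edgeR's test, 3 of the 10, where 62 of 11364 genes did (0.546%). Klf1 and Car2 were higher in hemoglobin-rich cells than in the others in 4 of 4 libraries, with no overlap between the sides, as were 0.994% of all genes. At an unadjusted p under 0.05 there were 5 of the 10 (5.54% of all genes), these 3 with Gata1, which was higher, and Apoe, which was lower.

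Klf1 stood at 67.0, 5.71 and 34.2 CPM in the hemoglobin-rich cells of PBS replicates 1, 2 and 3 and at 24.0 CPM in those of AML replicate 3, against at most 3.23 CPM in the other cells. These rest on 6, 1, 3 and 8 UMIs. The difference was 3.57 log2 units ± 0.57 (SE, edgeR adjusted p = 1.63e-07), and limma-voom gave an adjusted p of 0.0916.

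Car1 stood at 927, 0 and 1732 CPM in the PBS replicates and at 598 CPM in AML replicate 3, against 34.4 to 130 CPM in the other cells. PBS replicate 2 went against the other 3 libraries. The fold change of 3.32 ± 0.16 had a small standard error (edgeR adjusted p = 6e-86) because this fit gave all genes a common spread (infinite prior degrees of freedom). With robust estimation the adjusted p was 0.825 and with limma-voom 0.195.

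Car2 stood at 1709, 913 and 1868 CPM and at 745 CPM in the rich cells, against 714, 738, 654 and 396 CPM in the others. The difference was 1.00 ± 0.13 log2 units (edgeR adjusted p = 8.35e-11) and 0.70 with each cell thinned to 2000 UMIs (adjusted p = 0.0601). Limma-voom gave an adjusted p of 0.187 and edgeR without the library block 0.379. Gata1 had 1, 0, 3 and 5 UMIs in the rich cells (1.35 ± 0.66, adjusted p = 0.86). Apoe was lower in 3 of 4 libraries (-0.63 ± 0.23, adjusted p = 0.46), with PBS replicate 2 at 177 CPM against 143 CPM in its other cells. The other 5 genes had adjusted p of 0.999.

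Outside cluster 7 none of these calls was made. With it left out, 3 libraries remained, 9 of the 10 genes could be tested and none passed. On the log2 scale the difference was 0.06 for Car1 and 0.38 for Car2 (edgeR adjusted p = 1.00 for both), and Klf1 had 1 UMI in the 79 remaining cells. Pooled over libraries, Car1 went from 51.1 CPM in cells with no hemoglobin UMI to 634 CPM in those with at least 10, and without cluster 7 from 2.38 to 6.58 CPM, the last on 4 UMIs. Car2 went from 575 to 1059 CPM, and without cluster 7 from 568 to 696 CPM.

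**Figure D5:**
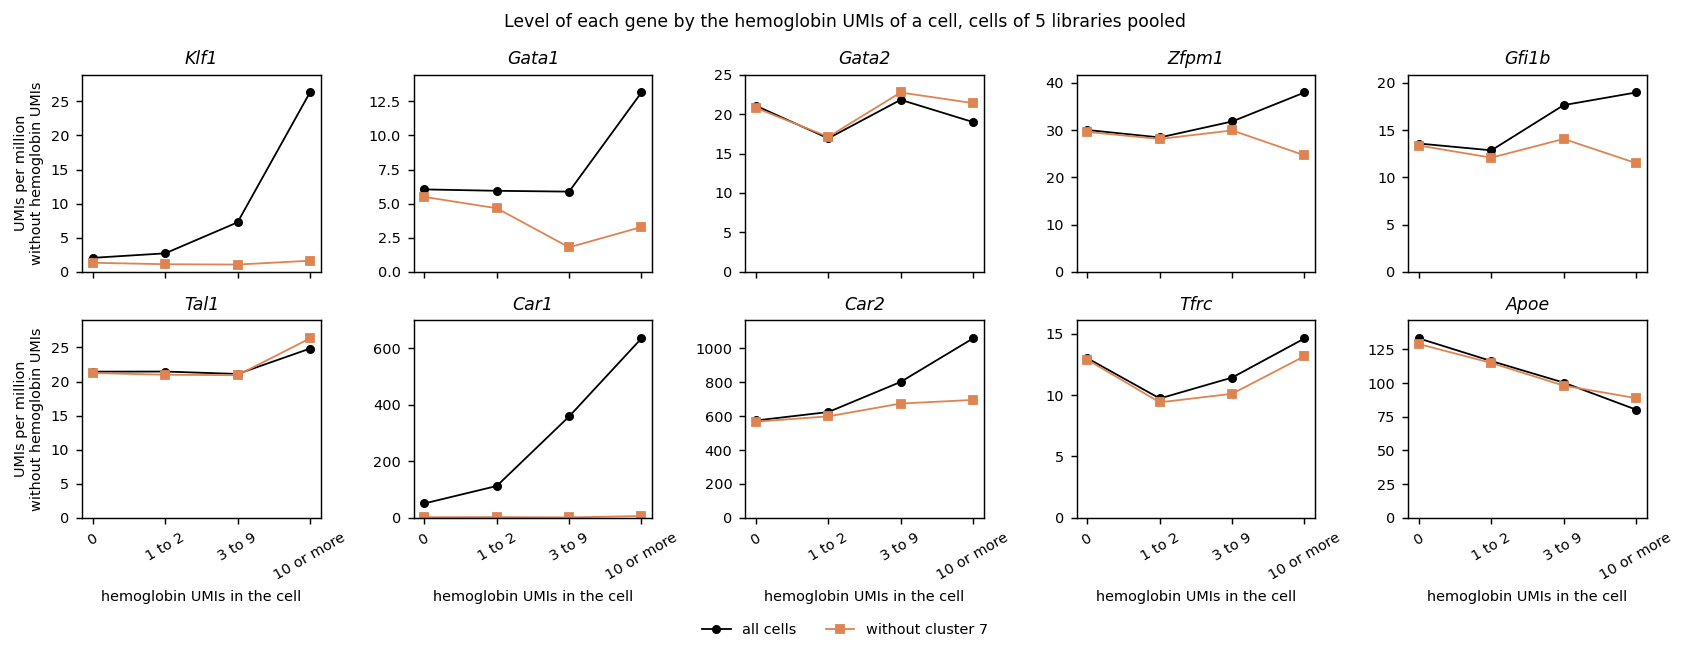
CPM (hemoglobin UMIs left out of the total) of each gene by the number of hemoglobin UMIs in the cell, over the cells of 5 libraries, for all cells (black) and without cluster 7 (orange). Klf1 stood at 26.3 CPM and Car1 at 634 CPM at 10 or more hemoglobin UMIs with cluster 7, and at 1.65 and 6.58 CPM without it.

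Erythroid genes outside the 10 were tested in the same edgeR fit, where 0.546% of all genes were called. Of 13 heme synthesis genes tested 4 rose, with Alad, Fech and Tmem14c among them, and none fell. Of 14 red cell membrane and late erythroid genes 6 rose and none fell, of which the 4 with the lowest p were Rhd, Blvrb, Tspo2 and Smim1, with log2 fold changes of 4.84, 2.61, 4.82 and 4.17. Limma-voom called none of either list, and without cluster 7 edgeR called 1 of 13 heme synthesis and 1 of 10 red cell genes. With cells thinned to 2000 UMIs these counts were 0 of 11 and 2 of 8. Neutrophil markers summed to 647 CPM in the hemoglobin-rich cells of all libraries and 5.94 CPM in the other cells, with 5.79 CPM in the rich cells of AML replicate 3, and their part in these values was not tested. None of 19 other erythroid regulators, 13 iron handling genes, 4 other carbonic anhydrases or 7 lipoprotein and cholesterol genes passed.

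Of 11 cells with at least 100 hemoglobin UMIs, 4 lay in cluster 7 and had 217 Car1 and 140 Car2 UMIs between them. The other 7 had no Car1 UMI and 23 of Car2. In 4 cells of PBS replicate 1, placed in cluster 6 and the HSC class, 90.6% to 92.1% of 2299 to 3194 UMIs were hemoglobin and 139 to 160 genes were detected. Of the 10 genes these 4 cells held only Car2, at 0, 0, 2 and 5 UMIs. The 4 hemoglobin genes tested in the HSC class, Hba-a1, Hba-a2, Hbb-bs and Hbb-bt, were called lower in AML by edgeR (log2 fold changes -5.62, -5.65, -5.81 and -1.56), in a fit that again gave all genes a common spread. DESeq2 and limma-voom called none of them, nor did edgeR without either AML library or, of the 3 genes then tested, without the cells with at least 10 hemoglobin UMIs. With robust estimation 1 was called. Over all LSK cells none of the 4 was called by edgeR, and 0 had an unadjusted p under 0.05, with a median log2 fold change of -1.06. In MPP-2 the 4 genes had positive fold changes (median 2.97 on the log2 scale, 3 with an unadjusted p under 0.05), and none was called.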

How the data were processed

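UMI counts per gene and cell barcode were deposited by the authors for 6 libraries, made with Cell Ranger 7.0.1 on GRCm38/mm10 per the submitters' processing notes, which also name R 4.2.2 and Seurat 4.3.0. Their table of cells gave library, class, cluster and phase, and 13 of its columns were not used. The authors also deposited per cell a percent of mitochondrial UMIs and a module score for each class, which were not used in the tests. The authors set the classes by module scores of published gene signatures. The authors' cell filters and doublet handling were not given in sources used here. The 10 genes and the gene lists were chosen with earlier results of these data known.

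Counts were summed per library, or per library and class with at least 20 cells, and tested with edgeR 4.0.16 (quasi-likelihood, TMM, filterByExpr, R 4.3.3), Benjamini-Hochberg adjusted over all genes tested, threshold 0.05. Difference between classes was tested as an interaction with library as a term. Cells with at least 10 hemoglobin UMIs were set against the other cells with library as a block, hemoglobin genes left out, in libraries with at least 10 cells on each side. DESeq2 1.42.0, limma 3.58.1, other scalings, no filter, thinning to 2000 UMIs and left-out cells or libraries were alternatives. The fits were tested on simulated data. Levels by class, cluster and phase were not tested, since the authors made these from the same cells. Positions come from GRCm38 and promoters from RefSeq on GRCm38.p6. Named genes were, by rule, the 10, at most the 4 called genes with the lowest p per list and direction, hemoglobin genes and the 3 nearest genes. Leading genes of clusters, markers at 0 and the pathway examples in cluster 7 fall outside that rule and were chosen after their values were seen. Some genes of the lists and rankings are not reported here. The labels do not say that libraries came from separate animals, so p-values measure the spread between libraries, which may be technical. Libraries of a group differed by more than counting error (chi-square per degree of freedom 21.0 to 72.4). Intervals and floors (3 counts) cover counting error only. The libraries' floors were 0.0934 to 1.54 CPM.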

Additional observations from a re-analysis of the deposited data

Results flagged for a closer look

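Car1 was noted because the effect of leukemia differed between classes by the interaction term (edgeR adjusted p = 0.00143). The value was 0.569 without cluster 7 and 0.329 with robust estimation of the spread. AML replicate 2, which has no cell in the authors' table, was noted because 4 of the 10 genes stood above every PBS library in the 106 of its barcodes with at least 1000 genes and at most 10% mitochondrial UMIs. Gata2 stood at 42.5 CPM (13 UMIs), Zfpm1 at 39.2 CPM (12 UMIs), Tal1 at 39.2 CPM (12 UMIs) and Tfrc at 19.6 CPM (6 UMIs), of 306059 UMIs in all, where 3 UMIs are 9.80 CPM. Apoe in the hemoglobin-rich cells of PBS replicate 2, at 177 CPM, lay far from the other 3 libraries at 45.0 to 55.9 CPM. Chance marks about 1 in 20 such groups of 4, and 20 were examined.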

How the results depend on the processing

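For the genes whose fold changes are given in each comparison (all 10 over all LSK cells and in MPP-2, and 2 to 5 genes elsewhere), there were 617 values under an alternative. Of these, 566 kept their side of the threshold and, outside the class difference, their direction. A further 26 passed the threshold anew, 18 no longer passed it and 7 changed sign. The 36 values of the class difference were scored by the threshold only, so their sign changes are not among the 7. There the MPP-2 term ran from -3.10 to 6.59 for Car1 and from -0.47 to 0.045 for Car2 when 1 library was left out. The 7 were Gata2 in cluster 0 alone (0.036) and cluster 2 alone (0.24), Zfpm1 (0.016) and Gfi1b (0.013) with equal class composition, Tal1 in cluster 4 alone (0.10), Car1 in cluster 0 alone (0.16), and Gata1 in hemoglobin-rich cells without cluster 7 (-0.34), all on the log2 scale. Over all of the 10 genes tested, with or without a value given, 7 of 9 in HSC, 0 of 10 in MPP-2, 3 of 8 in MPP-3, 3 of 8 in MPP-4, 6 of 10 in hemoglobin-rich cells and 5 of 10 over all LSK cells took the other sign under at least 1 alternative. Apoe and Car2 did not in any of the 4 classes or over all LSK cells, nor did Tfrc outside HSC and the hemoglobin-rich cells. The single-cluster and robust-spread alternatives were chosen after seeing the data. The number of the 10 genes called over all LSK cells (0) became 2 with DESeq2, 4 without a filter on low counts, 3 in cluster 4 alone and 1 with an own filter on the barcodes of 6 libraries. It ranged from 0 to 3 when 1 library was left out, reaching 3 without AML replicate 3 (Apoe, Car2 and Tfrc). In HSC it ranged from 0 to 1 (Car1 without PBS replicate 3, at 2.45), in MPP-2 and MPP-4 it stayed at 0, in MPP-3 it ranged from 0 to 1, in the class difference from 0 to 3 and in hemoglobin-rich cells from 3 to 4 (Apoe joining without PBS replicate 2, at -1.29, adjusted p = 0.0072). In MPP-2 it was 1 with DESeq2 and 2 without a filter. In MPP-3 it was 0 with DESeq2, limma-voom, clusters 0 to 4 only and robust spread, and 2 without a filter. In the class difference it was 0 with limma-voom, without cluster 7 and with robust spread, and 3 without a filter. In hemoglobin-rich cells it was 0 without cluster 7 and with limma-voom, and 1 with cells thinned to 2000 UMIs. The cause of these shifts was not tested. Over all genes the LSK calls went from 23 to 79 with DESeq2, 392 without a filter and 91 with the block, and ranged from 2 without PBS replicate 1 to 419 (of 14185) without AML replicate 3. Limits of at least 30 or 100 hemoglobin UMIs, at least 1% of UMIs, and MPP-2 cells alone were not run, since at most 1 library had enough cells. AML replicate 1, with the fewest UMIs, limits the lowest levels.

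Replicate numbers 1 and 3 occur in both groups. With the replicate number as a block, 1 of the 10 genes was called over all LSK cells (Car1), 1 in MPP-2 (Car1) and 2 in MPP-3 (Car1 and Apoe). The differences between libraries 1 and 3 in PBS and in AML correlated at -0.0674 over 14364 genes. Only these 2 numbers are shared, and the labels do not say what a number stands for. This correlation therefore cannot decide whether same-numbered libraries had more in common. Without the block, 2 of the 10 (Klf1 and Car1) were called in hemoglobin-rich cells.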
